A study of Mus musculus with 4 samples.

Results

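Bone morphogenetic protein (BMP) ligands and the secreted proteins that block them were followed in cardiomyocytes derived from CGR8, a mouse embryonic stem cell line. The set holds 9 genes, the ligands Bmp2, Bmp4, Bmp5, Bmp7 and Bmp10 and the antagonists Grem1, Nog, Chrd and Fst. They were found on the array through the RefSeq accession of each probe. All 9 had a probe, 10 probes in all, and all 9 were bright enough to test among 20726 features, of which 14993 were named genes. The 9 genes were chosen with results of these arrays known. The exact values used are not recorded, so the genes are treated as selected on their scaled signals in both comparisons below, and those values are a description.

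The siErbB4 group received a small interfering RNA against Erbb4, a receptor for neuregulins, over 48 hours, and the siScr group received a scrambled control RNA. Both groups were CGR8-derived cardiomyocytes in low-glucose medium with 2% serum, transfected with the Pepmute reagent. Each group held 2 samples, numbered 1 and 2 in the titles, and each sample was read on its own 1-colour Agilent array. The cells came from a single line, no source says that the replicates were separate cultures, and the p-values therefore measure only the spread between these samples. Incubation lasted 6 or 24 hours, and the labels do not tie either time to a sample. The labels contradict themselves for siErbB4, since its descriptions speak of the scrambled RNA and ErbB5 stands in the source name of replicate 2, so the groups rest on the titles and the transfection field.

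The 4 arrays lay on 1 slide and were scanned together, the replicate 2 arrays in positions 1 and 2 and the replicate 1 arrays in positions 3 and 4. Replicate number and place on the slide therefore cannot be told apart. Between 64.8% and 68.5% of probes were well above background. The probe for the targeted gene does not check the labels, since Erbb4 gave processed signals of 15.0 and 2.83 in siErbB4 replicates 2 and 1, against 11.9 and 9.02 in siScr replicates 2 and 1, and was well above background on siErbB4 replicate 2 only. Directions below are those of the samples as labelled. All 14 cardiomyocyte markers (sarcomere, Nkx2-5 and Ryr2 genes) passed the filter of being well above background on both arrays of a group. So did 8 of 8 pluripotency, 6 of 6 epicardial, 12 of 14 fibroblast and stroma and 8 of 11 endoderm markers. Passing the filter is therefore not particular to cardiomyocyte genes and does not show how pure the cultures were. Precision is limited by there being only 4 arrays: with 2 a side, the smallest two-sided p of an exact permutation test is 0.333.

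BMPs are secreted dimers of the transforming growth factor beta family. They bind paired type I and type II receptor kinases on the cell surface, which phosphorylate the SMAD proteins of the BMP branch, and these enter the nucleus with SMAD4 and switch on targets such as the Id genes. Gremlin, noggin, chordin and follistatin are secreted proteins that hold ligands away from their receptors, and follistatin binds activins most tightly. In the embryo BMP signals help to specify heart-forming mesoderm, and Bmp10 is a ligand of the developing trabecular and atrial muscle.

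Promoter sequences were at hand for 5 of the 9 genes, and are shown for those of the 5 that differed most between the arrays. These are Grem1 and Bmp4 (both lower in the replicate 2 arrays) and Bmp5 and Bmp10 (both higher there). Each is the 250 bases before the annotated start, written 5′ to 3′, from RefSeq on build GRCm38.p6. The windows are chr2:113758649-113758898 (minus strand) for Grem1, chr14:46390670-46390919 (minus strand) for Bmp4, chr9:75775115-75775364 (plus strand) for Bmp5 and chr6:87428744-87428993 (plus strand) for Bmp10. Capitals mark GGCGCC and CAGAC, letters bound by SMAD proteins, searched on both strands.
Grem1: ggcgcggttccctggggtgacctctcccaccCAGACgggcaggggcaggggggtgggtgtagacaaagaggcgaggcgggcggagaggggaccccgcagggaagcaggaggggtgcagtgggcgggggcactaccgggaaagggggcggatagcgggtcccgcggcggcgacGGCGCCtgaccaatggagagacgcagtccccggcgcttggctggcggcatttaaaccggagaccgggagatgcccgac
Bmp4: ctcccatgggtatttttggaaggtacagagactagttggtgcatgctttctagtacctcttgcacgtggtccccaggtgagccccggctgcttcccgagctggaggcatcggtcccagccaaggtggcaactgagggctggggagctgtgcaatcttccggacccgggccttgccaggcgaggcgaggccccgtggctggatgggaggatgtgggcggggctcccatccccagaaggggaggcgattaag
Bmp5: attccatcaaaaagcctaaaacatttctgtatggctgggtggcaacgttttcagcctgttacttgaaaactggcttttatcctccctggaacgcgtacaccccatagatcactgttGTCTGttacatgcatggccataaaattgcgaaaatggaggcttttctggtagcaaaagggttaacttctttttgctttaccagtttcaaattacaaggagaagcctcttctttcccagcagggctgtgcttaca
Bmp10: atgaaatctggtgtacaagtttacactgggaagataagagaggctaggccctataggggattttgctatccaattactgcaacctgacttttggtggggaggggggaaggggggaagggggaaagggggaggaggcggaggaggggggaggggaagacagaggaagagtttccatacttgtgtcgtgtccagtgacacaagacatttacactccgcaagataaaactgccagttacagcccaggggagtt
GGCGCC stood 78 bases and CAGAC 219 bases upstream of the Grem1 start, and CAGAC, on the other strand, 134 bases upstream of the Bmp5 start. Of 32851 mouse promoter windows of the same length, 9.59% held GGCGCC and 42.2% held CAGAC. Chrd, the remaining gene with a promoter sequence at hand, held GGCGCC but not CAGAC. The windows of Bmp4 and Bmp10 held neither, and no window of these 5 genes held TATAAA (12.4% of all) or CATTCC (12.6% of all). GC content was 72.0% for Grem1, 63.2% for Bmp4, 52.0% for Bmp10 and 42.8% for Bmp5. No promoter sequence was at hand for Nog, Fst, Bmp2 and Bmp7, which are named only.

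Levels are given as scaled log2 signal, the log2 of the processed signal minus the 75th percentile of its array, so that 0 is that percentile. A level belongs to its own probe and is not set against that of another gene. Bmp2, a ligand of the cushion-forming regions of the heart, had levels of 2.24 and 2.64 in siErbB4 replicates 2 and 1, against 2.10 and 2.21 in siScr replicates 2 and 1. The siErbB4 arrays were the higher pair, and the difference between the siErbB4 arrays exceeded the gap between the groups. Bmp4, a ligand of early mesoderm, had levels of 1.73 and 2.57 in siErbB4 replicates 2 and 1, against 2.10 and 3.05 in siScr replicates 2 and 1. Its replicate 2 arrays lay below its replicate 1 arrays in both groups, by 1.80-fold in siErbB4 and 1.93-fold in siScr. A further Bmp4 probe was well above background on 1 array and did not enter the test.

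Bmp7 had the smallest SD over the 4 arrays of the 9 genes (0.11 on the log2 scale), with levels of 2.18 and 2.09 in siErbB4 replicates 2 and 1, against 2.35 and 2.12 in siScr replicates 2 and 1. Its whole range over the arrays was 1.19-fold. Bmp5, a close relative of Bmp7, had levels of -3.59 and -4.22 in siErbB4 replicates 2 and 1, against -3.30 and -4.40 in siScr replicates 2 and 1. Its siErbB4 arrays lay between the siScr arrays, and both replicate 2 arrays lay above both replicate 1 arrays. Bmp10 had levels of -4.58 and -6.15 in siErbB4 replicates 2 and 1, against -5.07 and -5.86 in siScr replicates 2 and 1. Here the siScr arrays lay between the siErbB4 arrays, and the replicate 2 arrays were again the higher ones. Bmp10 was dim, with processed signals of 39.3 and 13.3 in siErbB4 replicates 2 and 1, against 26.2 and 17.0 in siScr replicates 2 and 1, while the dimmest probes well above background read 9.14 to 12.04.

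Grem1, which encodes gremlin, a cystine-knot antagonist that binds BMP2 and BMP4, varied most. Its processed signals were 38.8 and 212 in siErbB4 replicates 2 and 1, against 24.0 and 446 in siScr replicates 2 and 1, or scaled levels of -4.59 and -2.15, against -5.19 and -1.15. The siErbB4 arrays lay between the siScr arrays, which were 16.5-fold apart. The SD of Grem1 over the 4 arrays (1.93 on the log2 scale) was above that of 99.9% of features. Fst, the follistatin gene, had the same order of arrays, with levels of -0.32 and 1.02 in siErbB4 replicates 2 and 1, against -0.53 and 1.95 in siScr replicates 2 and 1. Its siScr arrays were 5.59-fold apart and its siErbB4 arrays 2.52-fold.

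Nog, which encodes noggin, had levels of -2.18 and -1.50 in siErbB4 replicates 2 and 1, against -1.83 and -1.46 in siScr replicates 2 and 1. The groups overlapped, and the replicate 2 arrays were the lower ones. Chrd, which encodes chordin, had levels of -4.58 and -4.59 in siErbB4 replicates 2 and 1, against -4.48 and -4.34 in siScr replicates 2 and 1. Both siErbB4 arrays lay below both siScr arrays, by 1.13-fold on average. Its probe was dim, with processed signals of 39.1 and 39.1 in siErbB4 replicates 2 and 1, against 39.4 and 48.8 in siScr replicates 2 and 1.

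**Figure D1:**
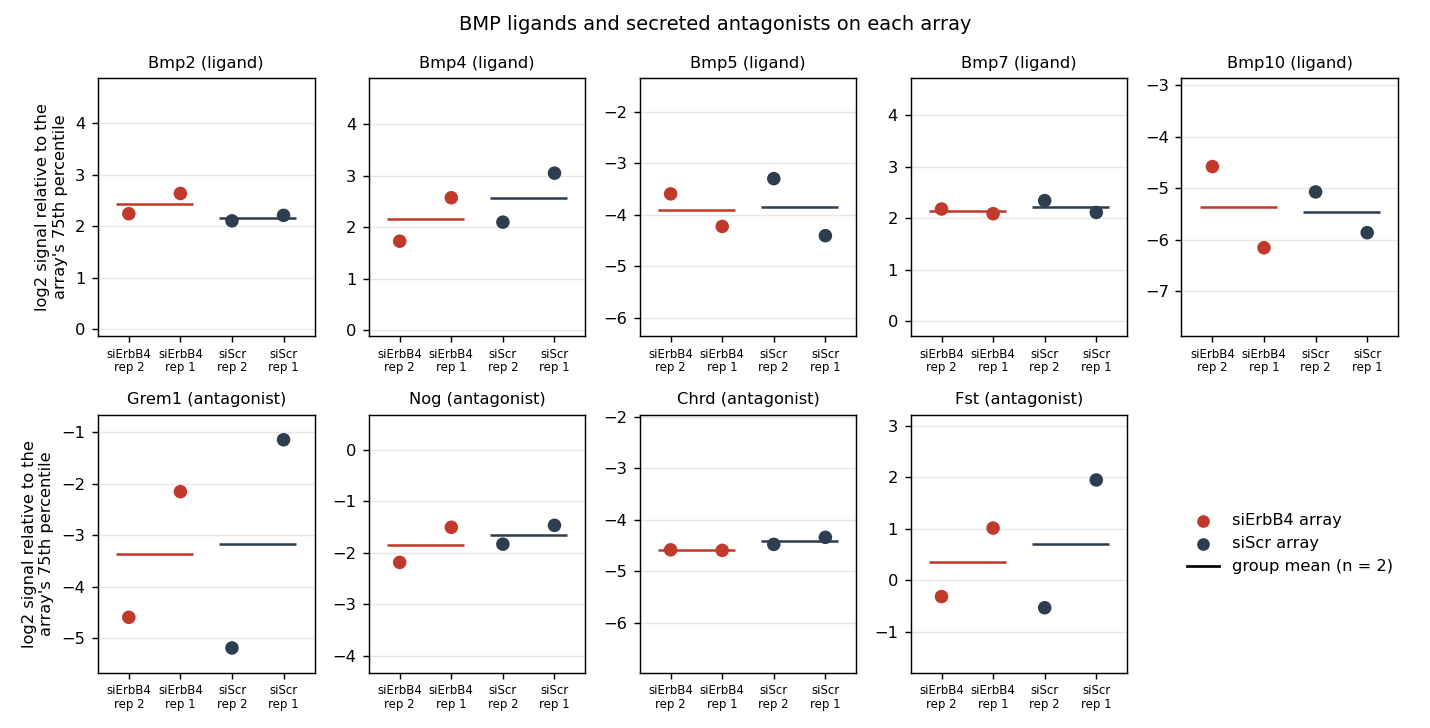
Scaled log2 signal (y axis, relative to the 75th percentile of each array) of the 9 genes on each array, siErbB4 in red and siScr in dark blue, with a line at each group mean (n = 2). All panels span the same number of log2 units around their own centre. Grem1 and Fst spread widest, with both replicate 2 arrays below both replicate 1 arrays, while Bmp7 and Chrd hardly moved.

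The first comparison was between the transfections, siErbB4 against siScr, as the titles name them. None of the 9 genes was called between siErbB4 and siScr by limma at a Benjamini-Hochberg adjusted p under 0.05, where 0.0% of all 20726 features were called. The 9 genes had adjusted p-values of 1.00 by limma. At an unadjusted p under 0.05 in this fit, which leaves out the replicate number, there were 0 of the 9 genes and 1.76% of all features (365). Of the ligands, 2 had a positive and 3 a negative log2 difference, with a median of -0.06. All 4 antagonists had a negative one, with a median of -0.20, against -0.01 over all features, where 52.9% were negative. The groups did not overlap at 2 of the 9 genes, Bmp2 and Chrd, or 22.2%, against 29.0% of all features.

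Bmp2 had a log2 difference (siErbB4 minus siScr) of 0.28 (standard error, SE, 0.19; 95% interval -0.24 to 0.81). Bmp4 gave -0.42 (SE 0.46, 95% interval -1.70 to 0.86), Bmp5 -0.06 (SE 0.47), Bmp7 -0.09 (SE 0.15, 95% interval -0.52 to 0.33) and Bmp10 0.10 (SE 0.63). The interval was narrowest for Bmp7 among the ligands. With normexp background correction Bmp5 gave -0.13, Bmp10 0.05 and Grem1 -0.37, and with quantile normalization Bmp5 gave -0.03. Among the antagonists, Chrd gave -0.18 (SE 0.13, 95% interval -0.55 to 0.19) and Nog -0.20 (SE 0.30). Fst gave -0.36 (SE 1.00, 95% interval -3.11 to 2.39) and Grem1 -0.21 (SE 1.66, 95% interval -4.80 to 4.38). For Grem1 and Fst these intervals are wider than the difference between replicates of a group. These SEs hold the spread between the replicate numbers. With the number as a block the differences were unchanged and the SEs smaller, at 0.12 for Bmp4, 0.30 for Fst and 0.40 for Grem1. Adjusted p-values by limma were then 0.641 for Bmp4, 0.709 for Fst and 0.872 for Grem1. The direction of Grem1 and Fst rested on single arrays, since without siScr replicate 1 Grem1 gave 1.82 and Fst 0.88, and without siErbB4 replicate 2 they gave 1.01 and 0.31. Left out in turn, single arrays also turned the signs of Bmp4, Bmp5, Bmp7, Bmp10 and Nog, and the sign held throughout for Bmp2 (0.09 to 0.48) and Chrd (-0.25 to -0.11). Such a refit sets both replicate numbers against 1 number, so differences between the numbers enter its values. Within each number, as given below, Bmp4, Bmp7 and Nog kept a negative sign.

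**Figure D2:**
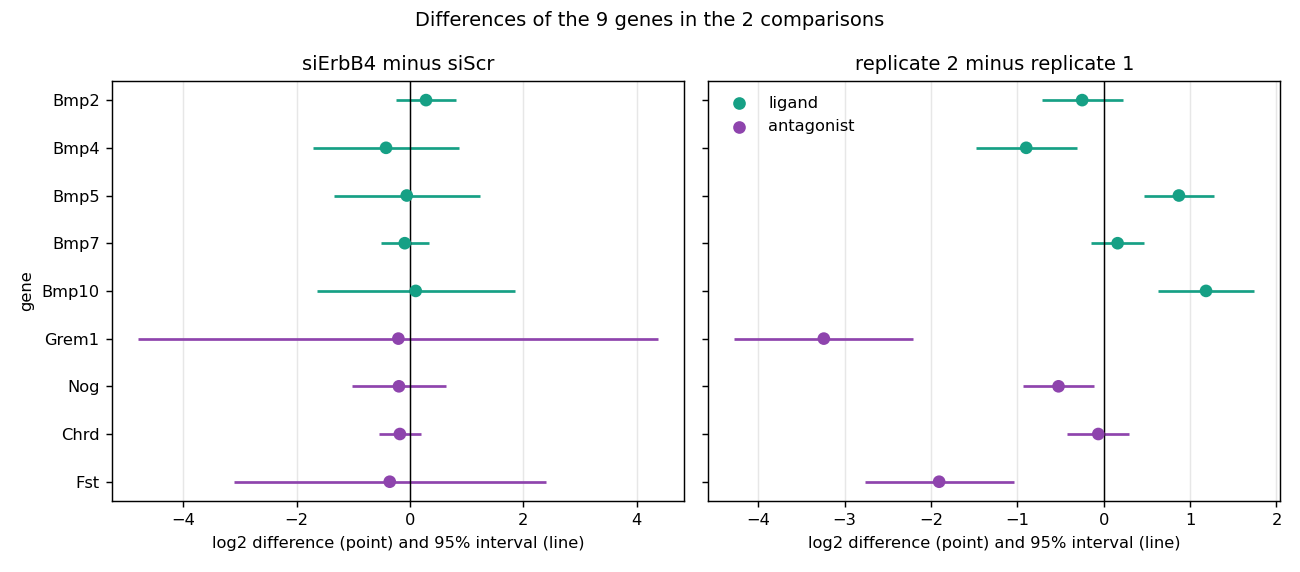
Log2 differences of the 9 genes (points) with 95% intervals of limma's estimate (lines), siErbB4 minus siScr on the left and replicate 2 minus replicate 1 on the right, ligands in green and antagonists in purple. On the left every interval holds 0, and those of Grem1 and Fst are the widest; on the right the Grem1 interval of -4.28 to -2.20 lies farthest from 0.

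Within each replicate number, where 1 siErbB4 array stands against 1 siScr array and no error can be given, several genes ran in opposite directions. Grem1 had a log2 difference of 0.60 at number 2 and of -1.01 at number 1. Fst gave 0.22 at number 2 and -0.93 at number 1, and Bmp10 gave 0.49 and -0.29. Bmp5 went the other way, with -0.30 at number 2 and 0.18 at number 1. Bmp2 was positive at both numbers (0.14 and 0.43), and Bmp4 (-0.37 and -0.48), Bmp7 (-0.16 and -0.02), Nog (-0.35 and -0.04) and Chrd (-0.11 and -0.25) were negative at both.

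**Figure D3:**
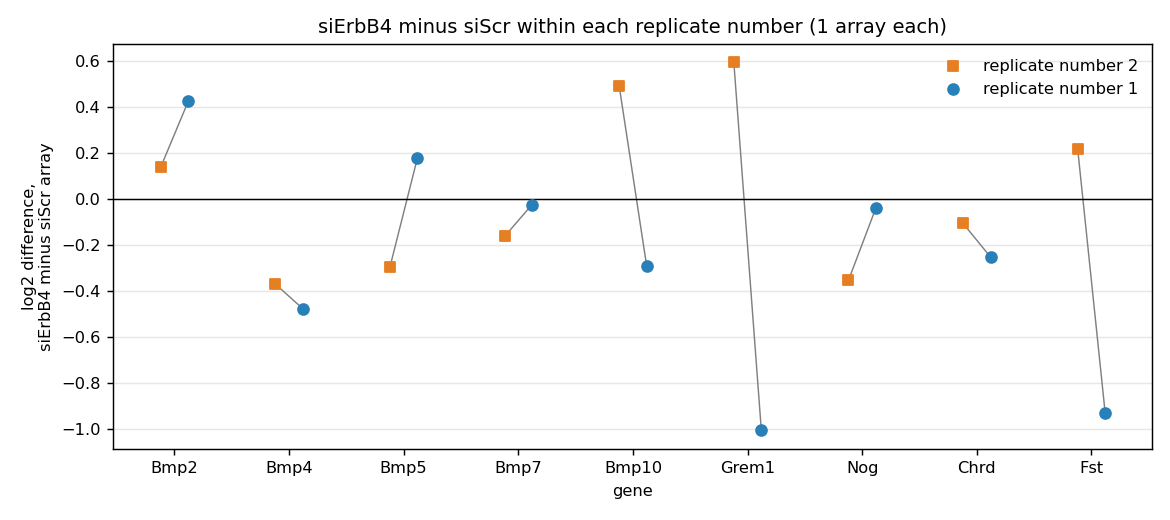
Log2 difference between the siErbB4 and the siScr array (y axis) of each gene at replicate number 2 (orange squares) and at number 1 (blue circles), 1 array a side. Grem1, Fst, Bmp10 and Bmp5 lie on opposite sides of 0 at the 2 numbers, and the other 5 genes on the same side.

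The second comparison set the replicate 2 arrays of both groups against the replicate 1 arrays. Grem1 fell in the replicate 2 arrays, the other antagonists had smaller negative differences, and the ligands had both signs. What the numbers stand for is not stated in the labels, so the comparison describes the spread within the groups. By limma with Benjamini-Hochberg adjustment, 5.23% of all 20726 features were called (600 higher and 484 lower), and 1 of the 9 genes, Grem1, was called, as lower. Arrays with the same number did not overlap with those of the other at 7 of the 9 genes (77.8%), 3 higher and 4 lower, against 55.4% of all features (29.4% higher and 26.0% lower). An unadjusted p under 0.05 was reached by 6 of the 9 genes and by 23.0% of all features. The antagonists, all 4 negative, had a median log2 difference of -1.22, and the ligands, 3 positive and 2 negative, had a median of 0.16. Over all features the median was 0.02, and 47.0% were negative. These counts may have been known when the genes were picked, and nothing is read from them.

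Grem1 averaged -4.89 ± 0.42 in the replicate 2 arrays and -1.65 ± 0.71 in the replicate 1 arrays (scaled log2, SD, n = 2 each), a 9.46-fold lower signal (log2 difference -3.24, SE 0.40). Fst averaged -0.42 ± 0.15 in the replicate 2 arrays and 1.48 ± 0.66 in the replicate 1 arrays, and was 3.75-fold lower (log2 difference -1.91, SE 0.33). Nog was 1.44-fold lower (log2 difference -0.52, SE 0.16), and Chrd gave -0.06 (SE 0.14). The limma adjusted p-values were 0.0504 for Fst, 0.142 for Nog and 0.83 for Chrd by Benjamini-Hochberg, so these 3 did not pass. The call of Fst depended on the processing. Its limma adjusted p was 0.0414 with the transfection as a term, 0.0058 with normexp, 0.0147 with an intensity trend and 0.0333 with probes well above background on all 4 arrays. It was 0.0512 when centred on the median, 0.0575 with quantile normalization and 0.171 with no filter on dim probes. Nog passed only with normexp (limma adjusted p 0.048).

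Among the ligands, Bmp4 was lower in the replicate 2 arrays, at 1.91 ± 0.26 against 2.81 ± 0.34 in the replicate 1 arrays (SD, n = 2 each; log2 difference -0.90, SE 0.22). Bmp10 was higher, at -4.82 ± 0.35 in the replicate 2 arrays against -6.01 ± 0.21 in the replicate 1 arrays (log2 difference 1.18, SE 0.21). Bmp5 was also higher, at -3.44 ± 0.21 in the replicate 2 arrays against -4.31 ± 0.13 in the replicate 1 arrays (log2 difference 0.87, SE 0.15). Bmp2 gave -0.25 (SE 0.18) and Bmp7 0.16 (SE 0.12), the smallest differences among the ligands. The limma adjusted p-values by Benjamini-Hochberg were 0.0525 for Bmp5, 0.0549 for Bmp10, 0.101 for Bmp4, 0.475 for Bmp2 and 0.481 for Bmp7. Bmp4 passed by limma only with the transfection as a term (adjusted p 0.0307), with normexp (0.0214) and with a trend (0.0417). Bmp5 passed by limma only with probes well above background on all 4 arrays (adjusted p 0.0365), with a trend (0.0386) and when centred on the median (0.0497). Bmp10 passed only with the first of these (0.0372). With normexp background correction, which shrinks the differences of dim probes, Grem1 was at -1.84, Bmp10 at 0.33 and Bmp5 at 0.37, while Fst stayed at -1.84 and Bmp4 at -0.89.

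Grem1 is treated as selected on these same values, so its call and p-values are a description and not a test. The call of Grem1 was lost in some refits with a single array left out, and with no filter on dim probes. Its limma adjusted p was 0.028 by the Benjamini-Hochberg method, 0.0307 without siErbB4 replicate 1, 0.0516 without siErbB4 replicate 2, 0.0547 without siScr replicate 1, 0.0563 without siScr replicate 2 and 0.128 with no filter on dim probes. Its log2 difference stayed between -3.75 and -2.74 with single arrays left out. The count over all features was 1539 without siErbB4 replicate 1, 72 without siErbB4 replicate 2 and 0 without either siScr array.

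Many markers of fibroblasts, smooth muscle and cardiomyocytes differed between the replicate numbers. Of all features, 47.0% were lower in the replicate 2 arrays by sign. Medians of the other marker lists ran from -0.96 (epicardial) to 0.75 (endoderm), with -0.06 for endothelial and macrophage and 0.0013 for pluripotency genes. Of 12 tested fibroblast and stroma markers, 10 were lower in the replicate 2 arrays (4 called, 0 called higher), where 2.34% of all features were called lower and 2.89% higher. Their summed signal, in units of the 75th percentile, was 8.38 in siErbB4 replicate 2 and 10.5 in siScr replicate 2, against 27.2 in siErbB4 replicate 1 and 48.0 in siScr replicate 1. Of 14 markers on the array, Fap was well above background on none. The 5 tested smooth muscle markers summed to 241 and 248 in siErbB4 and siScr replicate 2, against 429 and 541 in siErbB4 and siScr replicate 1, with 4 lower and 3 of them called. Of the 14 cardiomyocyte markers 13 were higher in the replicate 2 arrays (3 called), with sums of 2020 and 2142 in siErbB4 and siScr replicate 2, against 1585 and 1657 in siErbB4 and siScr replicate 1. The part of these markers in the differences of Grem1, Fst and the other genes was not tested. In such bulk samples, fewer cells of a type and less RNA per cell cannot be told apart.

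The genes whose pattern was most like that of Grem1 over the 4 arrays, by the Euclidean distance between profiles centred on their mean among 14992 named genes, were Serping1 (distance 0.412), Adamts2 (0.454) and Piezo2 (0.486). Serping1 encodes the C1 inhibitor, Adamts2 a procollagen protease and Piezo2 a mechanosensitive channel. Adamts2, for example, had levels of -2.18 and 0.34 in siErbB4 replicates 2 and 1, against -2.31 and 1.12 in siScr replicates 2 and 1. Piezo2 was dim in replicate 2, at -6.25 in siErbB4 and -6.97 in siScr. The siScr value lay below the dimmest probe well above background on that array, which limits the likeness of Piezo2 to Grem1. For Bmp10, the ligand that varied most, the nearest were Hif3a (0.042), Vldlr (0.112) and Lama2 (0.121). Hif3a encodes a hypoxia-inducible factor subunit, Vldlr a lipoprotein receptor and Lama2 a laminin chain of the muscle basement membrane. With 4 arrays, near matches among so many genes are easily found.

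Further genes of the pathway were taken from 5 lists of textbook genes. Between siErbB4 and siScr none of their genes was called by limma, and list medians lay between -0.20 and 0.12. In the replicate comparison, 2 tested genes were called as higher and 5 as lower, where 2.89% and 2.34% of all features were. The calls fell on other ligands, on SMADs and their regulators and on targets, and 0 fell on receptors or on the other antagonists. These calls and those of the markers above were lost without siScr replicate 1, without siScr replicate 2 and with no filter on dim probes, where 0 features were called. The 7 calls of the lists were also lost without siErbB4 replicate 2, with limma adjusted p-values of 0.067 to 0.142.

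Of the other BMP, GDF and activin ligands, 10 of 14 were tested. Of the 10, 9 were lower in siErbB4 by sign (median log2 difference -0.20), where 52.9% of all features were. The lowest p of these ligands were those of Gdf5, a joint-forming ligand, at -0.53 (SE 0.23), and Gdf3, a ligand of pluripotent cells, at 0.42 (SE 0.21). Gdf5 was at -0.17 with normexp and at -0.34 over the mean of its probes. In the replicate comparison 3 of the 10 were called, all lower in the replicate 2 arrays. Inhba, which encodes the activin A subunit that follistatin neutralises, had levels of 2.36 and 3.35 in siErbB4 replicates 2 and 1, against 2.40 and 3.33 in siScr replicates 2 and 1. Its replicates thus differed alike in both groups (log2 difference -0.96, SE 0.11, limma adjusted p 0.0253 by Benjamini-Hochberg). Gdf6 gave -2.24 (SE 0.32) and Bmp8b -0.97 (SE 0.12), with adjusted p-values of 0.035 and 0.0308 by limma. With normexp Gdf6 was at -1.24, and Bmp8b was at -0.29 and no longer called (limma adjusted p 0.223).

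Of the other secreted antagonists and modulators, 12 of 18 were tested. Of the 12, 10 were lower in siErbB4 by sign (median -0.13), where 52.9% of all features were. The 10 and the median include Sost, described next. Sost, which encodes sclerostin, an antagonist of Wnt co-receptors, was dim in siErbB4, with neither array well above background. It entered the test through the siScr arrays alone, so a negative difference follows from the filter and is not counted as a result. Its limma adjusted p was 0.947 by Benjamini-Hochberg, and its log2 difference was -0.28 with normexp. Kcp, which encodes a chordin-like enhancer of BMP signalling, gave -0.49 (SE 0.18). In the replicate comparison 8 of the 12 were lower, where 47.0% of all features were, and 0 were called. The lowest p was that of Crim1, a membrane-bound BMP-binding protein (-1.05, SE 0.19). Crim1 passed by limma with normexp (adjusted p 0.0078), with a trend (0.0179), with the transfection as a term (0.0359) and with probes well above background on all 4 arrays (0.0365). It did not pass with quantile normalization (0.058), when centred on the median (0.0611) or with no filter on dim probes (0.18).

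Of the receptors and co-receptors on the array, 12 of 16 were tested. Between siErbB4 and siScr their median was 0.12, with the lowest p at Acvrl1, a type I receptor of endothelium (-0.35, SE 0.13), and at the co-receptor gene Rgmb (-0.61, SE 0.32). With normexp Acvrl1 was at -0.17 and Rgmb at -0.13. Between the replicate numbers their median was 0.28, 8 positive and 4 negative, with 0 called. The lowest p were those of the activin receptor gene Acvr1b (0.70, SE 0.18) and of Eng, which encodes the co-receptor endoglin (-1.25, SE 0.35). Acvr1b was at 0.35 with normexp. Among refits on all 4 arrays, Eng passed by limma only with the transfection as a term (adjusted p 0.0395), and not with normexp (0.0576) or quantile normalization (0.137).

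Of the SMADs and their regulators, 12 of 13 were tested, with a median of 0.05 between siErbB4 and siScr. The lowest p there were those of Ski (-0.29, SE 0.18) and Skil (0.15, SE 0.14), which encode SMAD co-repressors. Ski was at -0.0017 with normexp, and Skil at 0.07 over the mean of its probes. In the replicate comparison 1 was called higher and 1 lower. Smad9, a SMAD of the BMP branch, had levels of -0.74 and -1.58 in siErbB4 replicates 2 and 1, against -0.77 and -1.83 in siScr replicates 2 and 1 (log2 difference 0.95, SE 0.13, limma adjusted p 0.0341 by Benjamini-Hochberg). Zfp423, a zinc finger partner of these SMADs, was lower in the replicate 2 arrays (-1.19, SE 0.13, limma adjusted p 0.0259).

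Of 20 listed target genes 18 were tested, with a median of -0.05 between siErbB4 and siScr, 8 positive and 10 negative. The lowest p were those of Atoh8 (-0.40, SE 0.25) and the cardiac T-box gene Tbx20 (0.25, SE 0.16), which was at 0.14 over the mean of its probes. Between the replicate numbers the median was 0.08, 10 positive and 8 negative. Tbx3, a T-box gene of the conduction system, was called higher in the replicate 2 arrays (1.33, SE 0.22, limma adjusted p 0.0468 by Benjamini-Hochberg, and 0.0514 with quantile normalization). Dlx2, a homeobox gene, was called lower (-1.23, SE 0.14, limma adjusted p 0.026). With normexp Dlx2 was at -0.42 and no longer called (limma adjusted p 0.0633). Signs were mixed among the targets in both comparisons.

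**Figure D4:**
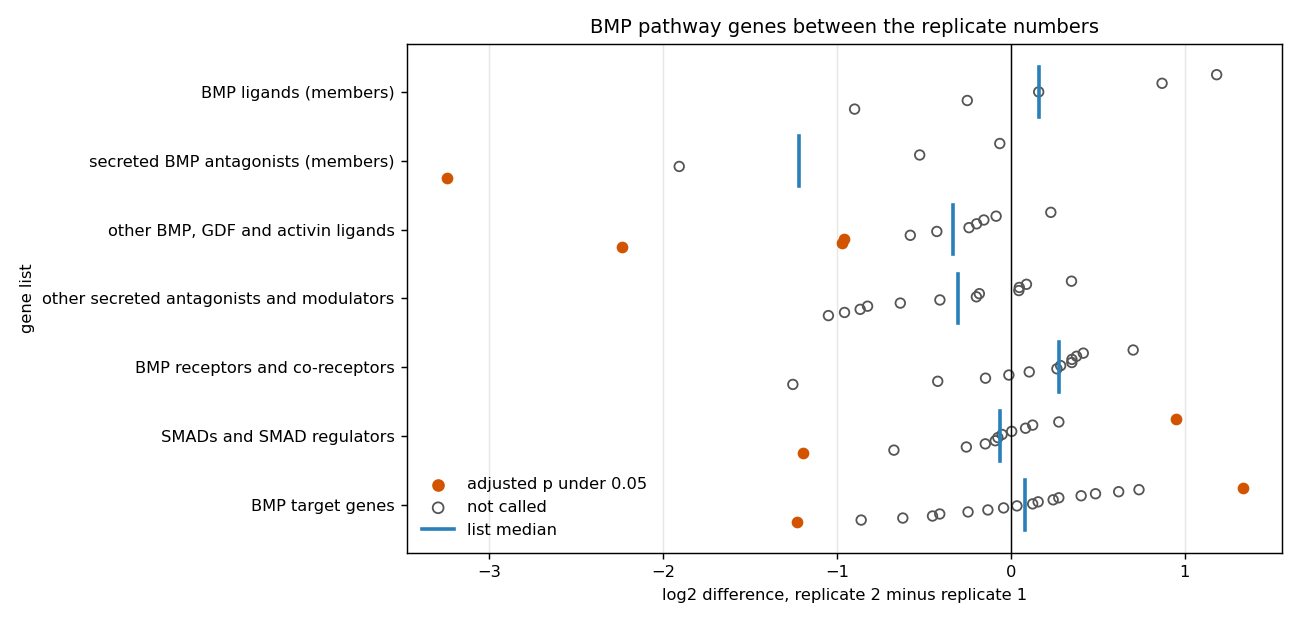
Log2 difference between the replicate 2 and the replicate 1 arrays (x axis) of each tested gene of the pathway, by list (y axis), filled orange where limma's adjusted p was under 0.05, with a blue line at each list's median. Grem1 at -3.24 lies farthest left, the called ligands of the other list are all lower, and the targets spread to both sides of 0.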

How the data were processed

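The scanner output of each array came from Agilent Feature Extraction (version 10.7.1.1), per the file headers and the submitters' processing notes. Per the file headers, the processed intensity was background-subtracted and detrended within the array and not scaled between arrays. Flags for spots well above background or outlying were set by the software, per the file headers. The authors' deposited table is on the log2 scale and matched the scaled values computed here (largest difference 0.00291, correlation 1), with column medians of -3.81 to -3.86, so neither scale, centring nor direction stayed unknown.

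Control spots (1377 of 44397) and outlier spots were left out, spots of a probe averaged, and the 75th percentile of each array subtracted from its log2 signals. Probes well above background on both arrays of a group were kept. A gene took its brightest kept probe. Of 39417 probes, 27498 were named through RefSeq accessions (GRCm38.p6). The array's own annotation names another build, so no coordinates were taken from it, and the promoter windows are those of GRCm38.p6. All features were fitted with limma 3.58.1 in R 4.3.3 (two-sided, Benjamini-Hochberg, threshold 0.05), tested on simulated data. The normexp alternative (offset 50) used the median spot and background signals in place of the planned mean signal, since the scanner output held no mean signal column.

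The members, the 5 pathway lists, the 10 marker lists and the tests were chosen with earlier results of these data known. The rule names all 9 members, the 2 genes of lowest p per pathway list and comparison (1 of them is not reported here), called list genes, and the 3 nearest profiles of the most variable ligand and antagonist.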

Additional observations from a re-analysis of the deposited data

Results flagged for a closer look

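Grem1 differed in direction between the replicate numbers: the siErbB4 array lay above the siScr array by a log2 difference of 0.60 at number 2 and below it, at -1.01, at number 1. With 1 array a side the difference was not tested.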

How the results depend on the processing

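Between siErbB4 and siScr no feature and no member was called under any of 13 alternatives, the replicate block among them (0 called, 1546 at an unadjusted p under 0.05). Nothing in the labels says what a number shares. Deviations of the 2 replicate 2 arrays from their group means correlated at 0.679 over the features. With 2 arrays a group, the replicate 1 deviations mirror these, so they add no further pair. With single arrays left out, the median of the ligands ran from -0.21 to 0.23 (1 to 4 of 5 negative) and that of the antagonists from -0.99 to 0.43 (1 to 4 of 4 negative). Single members ran from -0.90 to 0.052 (Bmp4), -0.61 to 0.50 (Bmp5), -0.21 to 0.0217 (Bmp7), -0.69 to 0.89 (Bmp10), -2.23 to 1.82 (Grem1), -0.54 to 0.14 (Nog) and -1.60 to 0.88 (Fst). These refits leave the replicate numbers unequal between the groups, so differences between the numbers enter their values. Between the replicate numbers, 1084 features were called, and 1875 with normexp, 1947 with an intensity trend in the prior, 0 with no filter on dim probes and 0 to 1539 with single arrays left out. The call of 1 member became 4 with normexp, with a trend and with probes above background on all arrays, 3 with the transfection as a term, 2 when centred on the median, 0 without the filter, and 0 to 2 with single arrays left out. Chrd turned to 0.0322 with normexp and ran from -0.19 to 0.0635 with single arrays left out. The cause of these shifts was not tested. Bmp10, Bmp5, Chrd and Grem1 in the replicate 2 arrays were dim, which limits their fold changes.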

Other observations

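Markers of further cell types are given as values. Between the replicate numbers 2.89% of all features were called higher and 2.34% lower, and 47.0% were lower by sign. Endoderm genes had a median log2 difference of 0.33 between siErbB4 and siScr and of 0.75 between the replicate 2 and replicate 1 arrays, where 7 of 8 were higher and 1 was called. Pluripotency genes had medians of 0.38 and 0.0013 over 8 genes, epicardial genes -0.03 and -0.96 over 6 (1 called lower between the numbers), and endothelial genes -0.19 and -0.06 over 5. Macrophage genes had medians of -0.30 and -0.06 over 4 (1 called higher between the numbers), neural genes -0.20 and -0.15 over 4, and cartilage and bone genes -0.21 and 0.02 over 3 (1 called lower). Between siErbB4 and siScr the fibroblast markers had a median of -0.45, the smooth muscle markers -0.19 and the cardiomyocyte markers -0.07.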
